A study of Rattus norvegicus with 12 samples.

Results

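The nuclear-encoded subunits of respiratory complexes II, III, IV and V, with their close assembly factors, were followed in rat hepatocytes isolated at set intervals after the death of the donor. Members were the array probe sets whose only gene symbol in the platform annotation starts with Uqc, Atp5 or Cox4 to Cox8, or is Cyc1, Cycs, Sdha, Sdhb, Sdhc or Sdhd. This gave 58 probe sets of 31042 (controls left out), or 51 gene symbols of 14217. Complex II had 5 probe sets, complex III with its assembly factors 16, complex IV 17 and complex V 20. The rule found 0 probe sets with Cycs, cytochrome c, as their only symbol. A further 7 probe sets carried several symbols of which 1 fits the rule, and they were not used.

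Respiratory complexes sit in the mitochondrial inner membrane. Complex II oxidizes succinate and passes the electrons to ubiquinone, complex III moves them from ubiquinol to cytochrome c, and complex IV hands them to oxygen, while complexes III and IV export protons from the matrix. Complex V, the ATP synthase, lets protons return through a turning ring and uses that motion to make ATP. Hepatocytes are rich in mitochondria, and their gluconeogenesis and urea synthesis draw on this ATP.

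The study used 12 arrays, 1 for each donor rat, in 4 groups of 3 animals. Livers of the strain given in the labels as Fischer 334 were perfused with collagenase, and RNA was taken from the hepatocytes without culture. The reference group came from donors whose hearts were beating, and the others from donors dead for 4 h, 16 h or 30 h, so each interval rests on different animals and no animal was followed over time. No allele or agent differed between the groups, and the sources used here do not give the ages and sexes of the rats. Every value is a log2 signal on the scale of RMA (robust multi-array average), and every fitted difference is on that log2 scale with n = 3 arrays per group. A member was called when its limma p, adjusted by Benjamini-Hochberg over all 31042 probe sets, was under 0.05. Signals of different probe sets were not ranked against each other, because each probe set has its own affinity.

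Hepatocyte markers were bright in all 12 arrays: albumin (Alb) read 14.49 to 14.51, the urea cycle enzyme Cps1 13.04 to 13.20 and transthyretin (Ttr) 13.62 to 13.92. The apolipoprotein Apoa1 read 11.84 to 12.55, and the asialoglycoprotein receptor Asgr1 10.12 to 10.50 in heart-beating donors but down to 8.72 over the 12 arrays. The muscle genes Myh6, Mb and Ckm read 4.14 to 5.05, under the array medians of 5.83 to 5.90. RNA quality differed with the interval. For the Gapdh control transcript, the log2 signal of the 3' probe set minus that of the 5' probe set ranged from 0.31 to 0.45 among heart-beating arrays and from 0.27 to 0.46 among those of 4 h. It reached 0.85 to 1.25 at 16 h, and 1.79 to 2.30 at 30 h with the highest value in animal 1. The same difference for Actb was 1.80 to 1.90, 1.54 to 1.81, 1.89 to 2.54 and 2.75 to 2.95. With 3 arrays against 3, the exact two-sided permutation p for 30 h against heart-beating donors was 0.1 for both controls, the smallest the design allows.

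Because the members are encoded all over the genome yet work as 1 chain, the stretch before their start sites is shown for 6 of them. The 51 symbols all matched the RefSeq annotation of the rat (assembly GRCr8) and lie on 19 chromosomes, and 44 had a promoter window of 250 bases before to 50 bases after the start. Windows were searched on both strands for the letters GCGCATGC (a site of NRF1, nuclear respiratory factor 1, whose letters overlap their own reverse complement), CCGGAAG (the core bound by ETS factors such as GABPA) and AAGATGGC (a site of YY1). The first was found in 13.6% of the 44 member windows and 2.66% of all 27457 windows, the second in 34.1% and 9.22%, and the third in 18.2% and 3.44%. Each line gives 150 bases up to the start, 5′ to 3′ on the gene's strand, for 4 genes whose signal fell at 30 h (Uqcrc2, Cox8a, Sdhb, Atp5me) and, for contrast, 2 that were not called (Uqcrq, Atp5pf), chosen after their values were seen and among genes with a match in the bases shown. Capitals mark matches to any of the 3 motifs on either strand within the bases shown. Coordinates are those of GRCr8: Uqcrc2 at chr1:184599090-184599239 (plus strand), Cox8a at chr1:213833624-213833773 (minus), Sdhb at chr5:158547784-158547933 (plus), Atp5me at chr14:1464710-1464859 (plus), Uqcrq at chr10:38089979-38090128 (minus) and Atp5pf at chr11:37375102-37375251 (minus).
Uqcrc2: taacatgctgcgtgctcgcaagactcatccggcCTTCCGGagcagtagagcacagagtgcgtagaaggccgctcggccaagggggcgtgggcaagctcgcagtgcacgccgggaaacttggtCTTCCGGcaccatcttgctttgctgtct
Cox8a: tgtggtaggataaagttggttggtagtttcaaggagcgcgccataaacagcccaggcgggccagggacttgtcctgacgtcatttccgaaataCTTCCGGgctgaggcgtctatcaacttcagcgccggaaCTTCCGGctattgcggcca
Sdhb: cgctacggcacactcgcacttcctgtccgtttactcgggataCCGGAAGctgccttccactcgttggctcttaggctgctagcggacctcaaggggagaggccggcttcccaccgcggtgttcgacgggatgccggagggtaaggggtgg
Atp5me: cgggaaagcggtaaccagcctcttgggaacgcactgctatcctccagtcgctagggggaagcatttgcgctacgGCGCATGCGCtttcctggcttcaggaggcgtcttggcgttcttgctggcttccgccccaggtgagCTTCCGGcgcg
Uqcrq: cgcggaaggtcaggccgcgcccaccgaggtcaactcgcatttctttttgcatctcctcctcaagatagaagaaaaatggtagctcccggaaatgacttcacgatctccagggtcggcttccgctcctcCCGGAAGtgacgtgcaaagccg
Atp5pf: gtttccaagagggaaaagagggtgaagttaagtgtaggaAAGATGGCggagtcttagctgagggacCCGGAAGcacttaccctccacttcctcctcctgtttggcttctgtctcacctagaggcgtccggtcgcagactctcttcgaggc

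In Uqcrc2 the ETS letters, read as their reverse complement CTTCCGG, begin at positions -117 and -28 from the start, and in Cox8a at -57 and -19. In Uqcrq they begin at -22 as CCGGAAG. Among the 22 member genes whose brightest probe set fell at 30 h, 45.5% of windows held the ETS letters, 22.7% the NRF1 letters and 22.7% the YY1 letters. Among the other 22 the shares were 22.7%, 4.55% and 13.6%. In numbers of genes these are 10, 5 and 5 against 5, 1 and 3. The other 22 include Uqcc1 and Atp5f1e, which rose, and Cox6a2, Cox6b2, Cox7a1, Cox7b2 and Cox8b. Those Cox genes are forms of other tissues with dim signals, and their windows held 0 of the 3 motifs. A link between the letters and the falls was not tested. A match is a description of the letters only, and binding was not measured.

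More members differed at 30 h than at the earlier intervals. At 30 h 31 of 58 members fell and 2 rose against heart-beating donors, and 25 were not called. Over all 31042 probe sets 9.36% fell and 10.4% rose. The median difference of the members was -0.27, against 0.01 over all probe sets, and 47 of 58 lay below 0. Another quantile normalization left 26 falls and 6 rises among the members and a median of -0.11, cyclic loess a median of -0.18 and median centring -0.27. Over all probe sets the quantile normalization left 3132 falls and 3346 rises, against 2904 and 3226 in the main fit. In 33 members all 3 arrays at 30 h lay below all 3 heart-beating arrays, a pattern found in 16.6% of all probe sets. A fall of at least 1 log2 unit (2-fold) was called in 7 members, against 0.979% of all probe sets. These are values of bulk samples, in which fewer cells of a type and less RNA per cell cannot be told apart.

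**Figure D1:**
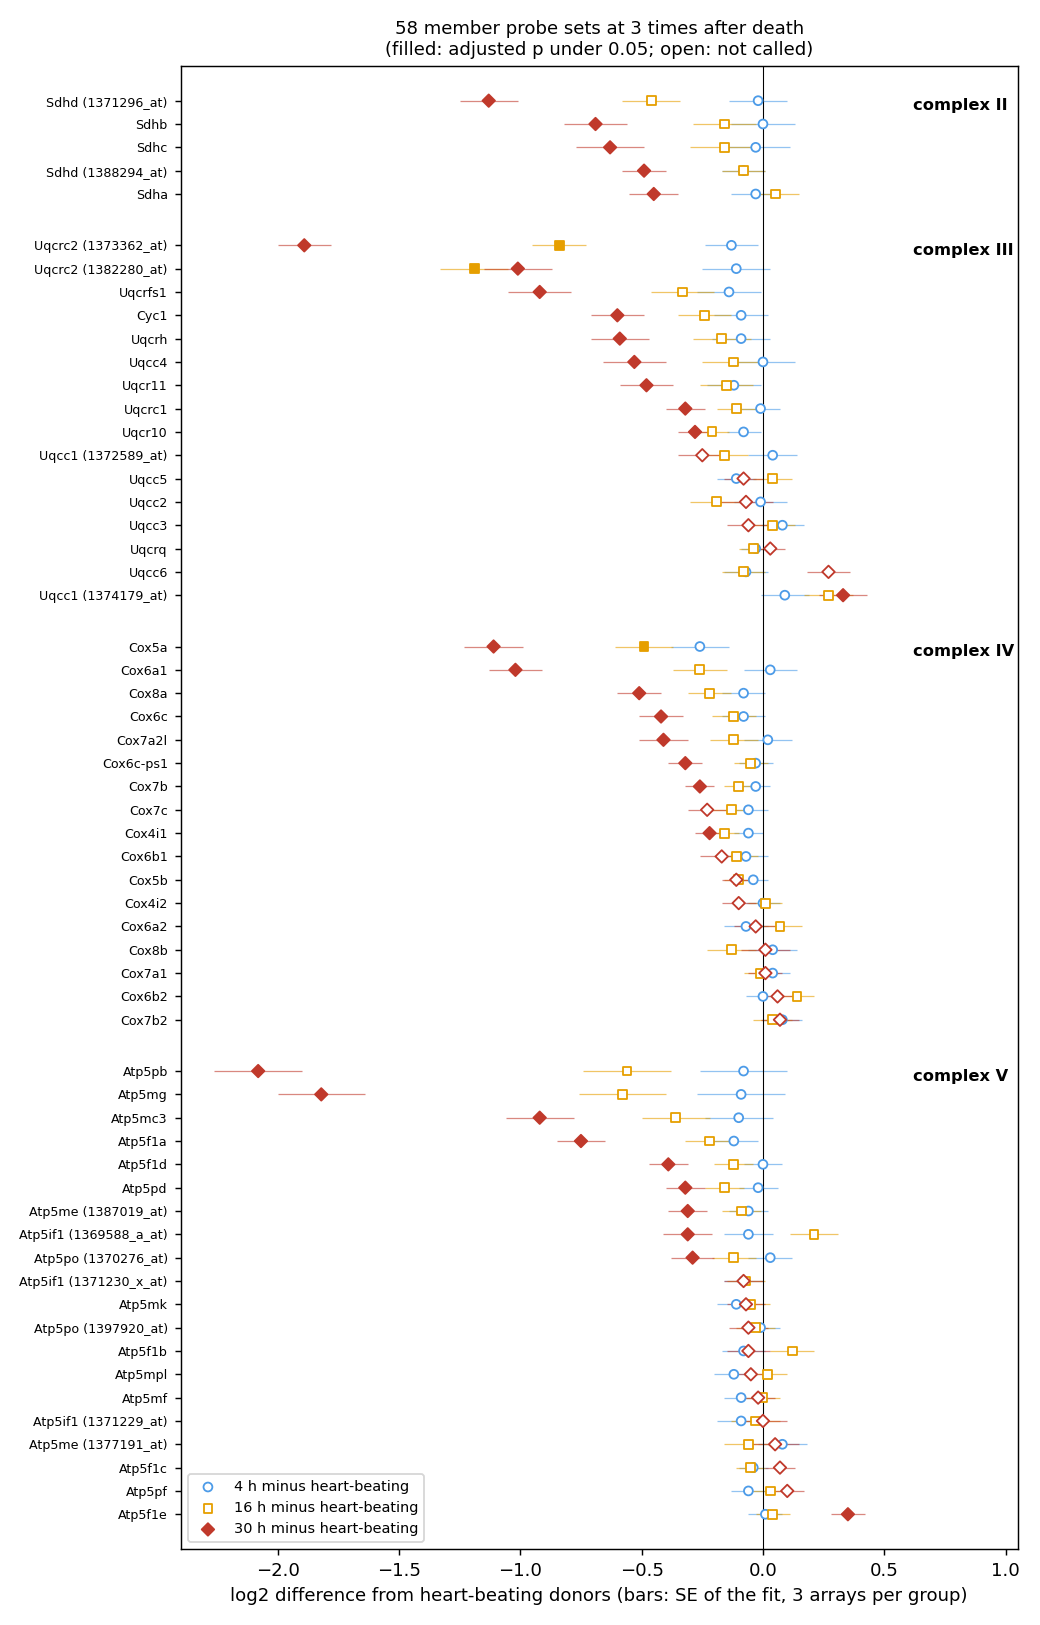
Log2 difference from heart-beating donors (x axis) for each of the 58 member probe sets (y axis, grouped by complex) at 4 h (circles), 16 h (squares) and 30 h (diamonds), with bars for the standard error of the fit and filled symbols for adjusted p under 0.05. The 30 h values run from -2.08 for Atp5pb to 0.35 for Atp5f1e, and all 5 complex II probe sets are filled on the low side.

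Bright probe sets as a whole leaned the same way. Of the 1076 probe sets with a mean log2 signal of at least 10, 34.2% fell at 30 h, with a median difference of -0.14. Of the 33 members that bright, 22 fell, with a median of -0.32. Complex I, the NADH dehydrogenase that feeds electrons in ahead of complex III, had 19 falls and 2 rises among its 38 nuclear-encoded probe sets, with a median of -0.26.

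**Figure D2:**
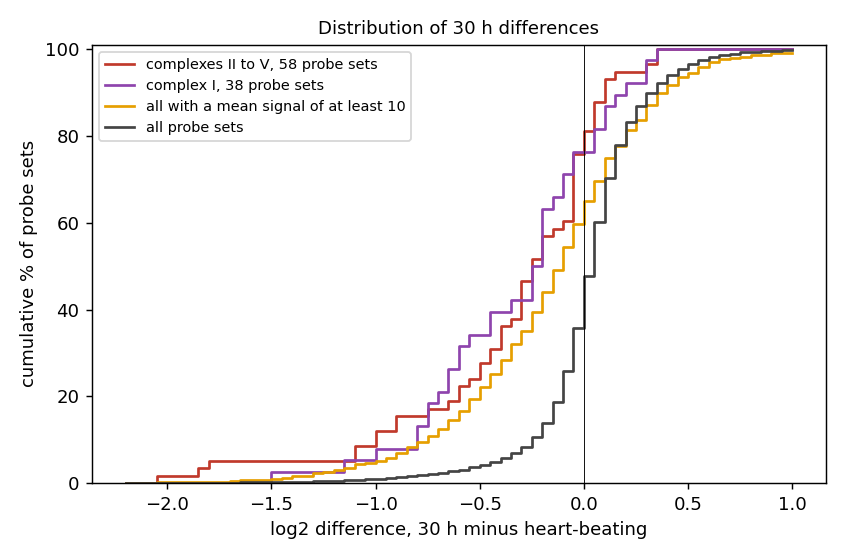
Cumulative percentage of probe sets (y axis) up to each log2 difference, 30 h minus heart-beating (x axis), for the 58 members, the 38 complex I probe sets, all probe sets with a mean log2 signal of at least 10 and all probe sets. The curve of the members (median -0.27) and that of complex I (median -0.26) lie to the left of the bright probe sets (median -0.14) and of all probe sets (median 0.01) around their medians.

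The size of the fall differed between the animals of the 30 h group. Animal 1 was the lowest of the 3 in 30 of the 31 members that fell, animal 2 in 1 and animal 3 in 0. The median deviation of these 31 from their heart-beating means was -0.75 in animal 1, -0.42 in animal 2 and -0.35 in animal 3. Animal 1 had the largest Gapdh 3' to 5' difference of the 3 (2.30) and the smallest Actb difference (2.75, against 2.92 and 2.95 in animals 2 and 3). Without animal 1, 28 members were called at 30 h. Over all probe sets the 2904 falls and 3226 rises became 2381 and 2837 in that fit.

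The direction of these falls depended on which RNA quality control was used as a covariate. With the Gapdh 3' to 5' difference of each array in the limma model, 28 of the 31 members that fell lay above 0 (median 0.34) and 3 below 0, namely both Uqcrc2 probe sets (-0.80 and -1.20) and Cox5a (-0.07). With the Actb difference instead, all 31 lay below 0, with a median of -0.49 against -0.51 without a covariate. The median standard error of the 58 members grew from 0.09 to 0.27 and 0.24. In both models 0 of 58 members and 0 of all 31042 probe sets were called at 30 h, while 14 and 13 members and 4438 and 2683 of all probe sets had an unadjusted p under 0.05. When 30 h animal 1 was left out and the Gapdh covariate kept, 19 of the 31 lay above 0 and 12 below, with a median of 0.07. The median standard error of the 58 members was then 0.36. In that fit 0 members and 0 of all 31042 probe sets were called, and 1 and 1343 had an unadjusted p under 0.05. At 30 h the values of both controls lay above those of every other group, so these fits cannot tell RNA quality from the interval. The part of RNA quality in the member results was otherwise not tested.

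**Figure D3:**
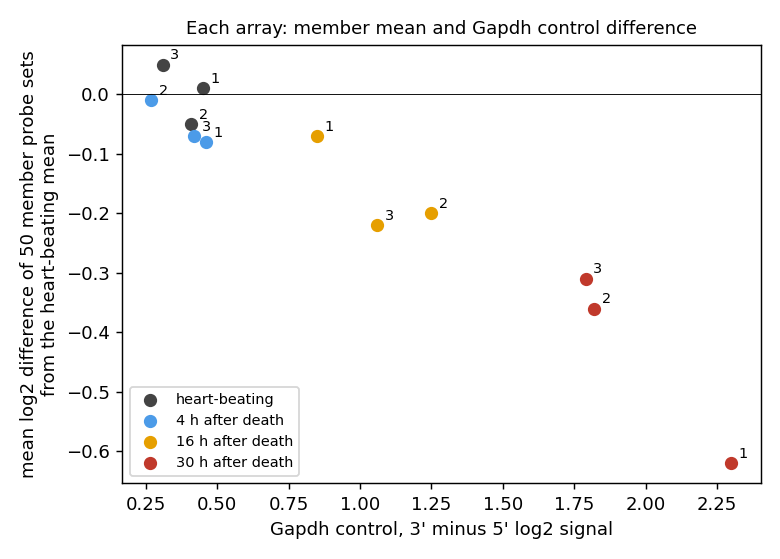
Each point is 1 array, with its animal number beside it: the Gapdh control difference, 3' minus 5' log2 signal (x axis), against the mean log2 difference of the 50 members that are not below the array median in all 12 arrays from their heart-beating means (y axis). The 16 h arrays lie at -0.22 to -0.07 on the y axis and the 30 h arrays at -0.62 to -0.31, with 30 h animal 1 at the far right and lowest.

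All 5 probe sets of complex II, which cover its 4 subunits, fell at 30 h, with a median of -0.63. Sdhb, the iron-sulfur subunit, read 11.09, 11.03 and 11.21 in heart-beating donors, 10.98, 11.12 and 11.20 at 4 h, 11.06, 10.82 and 10.95 at 16 h, and 10.02, 10.60 and 10.62 at 30 h. The 30 h arrays lay below every other array, while those of the 3 earlier groups overlapped. Its difference at 30 h was -0.69 (SE 0.13, adjusted p = 0.003), a 1.62-fold lower signal. Sdha, the flavoprotein that oxidizes succinate, went from a heart-beating mean of 10.23 ± 0.05 (SD) to 9.79 ± 0.23 at 30 h, a difference of -0.45 (SE 0.10, adjusted p = 0.00899). Sdhc, a membrane anchor at the ubiquinone site, went from 10.63 ± 0.07 to 9.99 ± 0.39, a difference of -0.63 (SE 0.14, adjusted p = 0.00738). For both genes all 3 arrays at 30 h lay below the heart-beating arrays. The other anchor, Sdhd, fell in both of its probe sets, with differences of -1.13 (SE 0.12, adjusted p = 5.73e-05) and -0.49 (SE 0.09, adjusted p = 0.00161).

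Complex III had 9 falls, 1 rise and 6 probe sets not called, with a median of -0.30. The core subunits fell in 3 of 3 probe sets, the redox subunits in 2 of 2 and the small subunits in 3 of 4, whereas the 7 probe sets of the assembly factors had 1 fall (Uqcc4, -0.53, adjusted p = 0.00996) and 1 rise. Uqcrc2, a core subunit, was measured by 2 probe sets that are described with the paired probe sets. Its partner Uqcrc1 was lower by a smaller amount, a difference of -0.32 (SE 0.08, adjusted p = 0.018). Uqcrfs1, the Rieske iron-sulfur protein that takes the first electron from ubiquinol, read 10.81, 10.77 and 10.92 in heart-beating donors, 10.72, 10.77 and 10.60 at 4 h, 10.55, 10.49 and 10.47 at 16 h, and 9.52, 10.12 and 10.11 at 30 h. Its 16 h and 30 h arrays all lay below the heart-beating arrays, and the 30 h arrays below those at 16 h. The difference was -0.33 at 16 h (adjusted p = 0.172, not called) and -0.92 at 30 h (SE 0.13, adjusted p = 0.000356), or 1.89-fold lower. Cyc1, the cytochrome c1 that delivers electrons to cytochrome c, had a heart-beating mean of 10.60 ± 0.07 and read 9.71, 10.05 and 10.23 at 30 h, a difference of -0.60 (SE 0.11, adjusted p = 0.00253).

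Among the small subunits of complex III, Uqcrh (-0.59), Uqcr11 (-0.48) and Uqcr10 (-0.28) fell, and Uqcrq did not pass the test. Uqcrq stayed within a narrow band: heart-beating arrays read 12.10 to 12.11, those of 4 h 12.03 to 12.15, those of 16 h 12.05 to 12.07 and those of 30 h 12.10 to 12.15. Its 30 h difference was 0.03 (SE 0.06, adjusted p = 0.791), with overlapping arrays, and it is named because its value stood near 0 beside the others. Of the assembly factors, Uqcc2 (-0.07), Uqcc3 (-0.06) and Uqcc5 (-0.08) were not called at 30 h, and Uqcc6 had a difference of 0.27 with an adjusted p of 0.0557.

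Several subunits of complex IV have isoforms that are known from different tissues. Among the 10 probe sets of liver or general forms 7 fell at 30 h, with a median of -0.33, and 0 rose. The 6 probe sets of forms known from muscle, lung or testis (Cox4i2, Cox6a2, Cox6b2, Cox7a1, Cox7b2 and Cox8b) had differences from -0.10 to 0.07, 0 were called by limma and 0 had an unadjusted p under 0.05. Their group means lay between 4.02 and 5.57 and below the array medians, near the dim end of the scale. The probe set of the pseudogene Cox6c-ps1 fell by 0.32 on the log2 scale, a value that is uncertain because its probes may also read Cox6c.

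Within the isoform pairs, the liver form Cox6a1 read 11.61, 11.65 and 11.73 in heart-beating donors, 11.71, 11.73 and 11.65 at 4 h, 11.55, 11.32 and 11.36 at 16 h, and 10.32, 10.83 and 10.78 at 30 h. All 30 h arrays were lower than any earlier array. Its difference at 30 h was -1.02 (SE 0.11, adjusted p = 7.12e-05), a 2.03-fold lower signal, and that of the heart and muscle form Cox6a2 was -0.03. Cox8a, the general form of subunit 8, had a difference of -0.51 (SE 0.09, adjusted p = 0.00191) and its muscle counterpart Cox8b differed by 0.01. Cox4i1, the general form of a subunit through which ATP levels act on the enzyme, fell by 0.22 on the log2 scale (adjusted p = 0.0201), and the lung form Cox4i2 differed by -0.10. The Cox4i1 call was lost in 10 of 25 settings. Cox6b1 (-0.17, adjusted p = 0.225) was not called and neither was Cox6b2 (0.06). Cox7a2l, which takes part in joining complexes III and IV into supercomplexes, fell by 0.41 on the log2 scale, and Cox7a1, the heart and muscle form of subunit 7a, differed by 0.01.

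Cox5a, which lies on the matrix side of the enzyme, was the complex IV subunit called at the earliest interval. It read 9.55, 9.39 and 9.42 in heart-beating donors, 9.23, 9.25 and 9.10 at 4 h, 9.10, 8.97 and 8.84 at 16 h, and 8.04, 8.39 and 8.61 at 30 h. The arrays of each later interval lay below all heart-beating arrays, including those at 4 h, where the difference of -0.26 was not called (adjusted p = 0.938). The differences were -0.49 at 16 h (SE 0.12, adjusted p = 0.0358), and -1.11 at 30 h (SE 0.12, adjusted p = 5.6e-05). The 16 h call was lost in 11 of 26 settings: without any 1 of the 16 h or heart-beating arrays, after median centring, with the replicate block and in the 3 fits with an RNA quality covariate. Cox6c (-0.42) and Cox7b (-0.26) also fell at 30 h, while Cox5b (-0.11) and Cox7c (-0.23, adjusted p = 0.0576) were not called although their 30 h arrays lay below the heart-beating ones.

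Complex V was uneven: 9 of its 20 probe sets fell, 1 rose and 10 were not called, with a median of -0.08 and a range from -2.08 to 0.35. The peripheral stalk, which holds the head still while the ring turns, showed this spread among 4 genes. Atp5pb, its b subunit, read 12.11, 12.05 and 12.13 in heart-beating donors, 11.94, 12.06 and 12.04 at 4 h, 11.79, 11.37 and 11.46 at 16 h, and 9.46, 10.28 and 10.31 at 30 h. Its 16 h arrays lay below all heart-beating and 4 h arrays, and its 30 h arrays lay below those at 16 h. The 30 h difference was -2.08 (SE 0.18, adjusted p = 1.31e-05), 4.23-fold lower, and the 16 h difference of -0.56 was not called (adjusted p = 0.101). Atp5pd (-0.32) and 1 of 2 probe sets of Atp5po (-0.29, adjusted p = 0.0376), the oscp subunit that caps the head, also fell. The Atp5po call was lost in 13 of 25 settings. Its other probe set (1397920_at) was dim, below the array median in all 12 arrays. The fourth stalk gene, Atp5pf (coupling factor 6), had a difference of 0.10 (adjusted p = 0.337) with overlapping arrays.

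**Figure D4:**
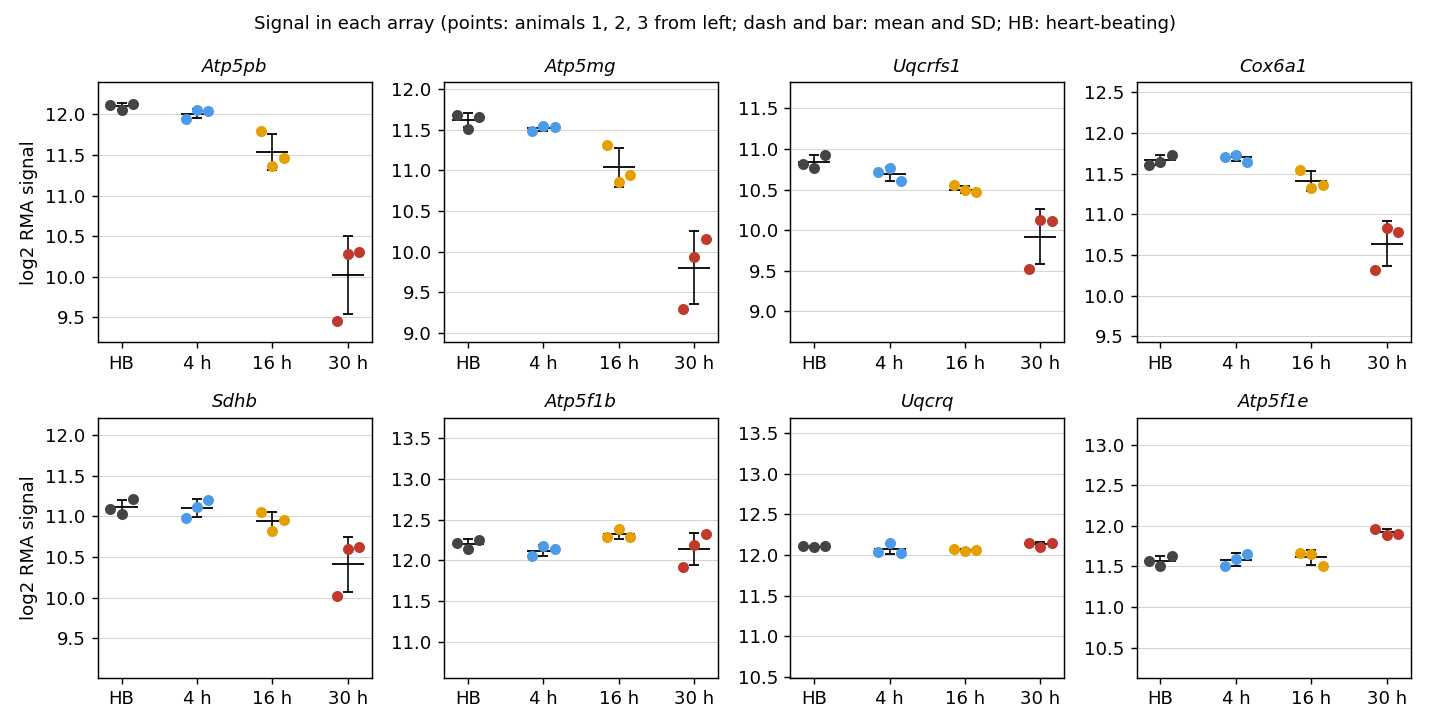
Log2 RMA signal (y axis) of 8 members in each array, by group (x axis), with points for animals 1, 2 and 3 from left to right and a dash and bar for the mean and SD, n = 3; every panel spans the same number of log2 units. Atp5pb, Atp5mg, Uqcrfs1, Cox6a1 and Sdhb are lowest at 30 h, with animal 1 below animals 2 and 3, Atp5f1b and Uqcrq overlap between heart-beating donors and 30 h, and Atp5f1e is higher at 30 h than in every earlier group.

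The catalytic head and central stalk of complex V had 2 falls, 1 rise and 2 genes not called. Atp5f1a, the alpha subunit, was at 11.43 ± 0.10 in heart-beating donors and 10.68 ± 0.21 at 30 h, a difference of -0.75 (SE 0.10, adjusted p = 0.00028). Atp5f1b, the beta subunit that carries the catalytic sites and is built into the head in equal number with alpha, read 12.14 to 12.25 in heart-beating donors and 11.92 to 12.32 at 30 h. These arrays overlapped, and the difference was -0.06 (SE 0.09, adjusted p = 0.73). Of the central stalk, Atp5f1d (delta) fell by 0.39 on the log2 scale, Atp5f1c (gamma) had a difference of 0.07 (adjusted p = 0.474), and Atp5f1e (epsilon) rose. Atp5f1e read 11.57, 11.51 and 11.63 in heart-beating donors, 11.50, 11.59 and 11.65 at 4 h, 11.67, 11.65 and 11.51 at 16 h, and 11.96, 11.89 and 11.90 at 30 h. Its 30 h arrays lay above all the others, by a difference of 0.35 from heart-beating donors (SE 0.07, adjusted p = 0.00285).

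In the membrane part of complex V, 3 of 7 probe sets fell. Atp5mg, the g subunit, read 11.68, 11.51 and 11.66 in heart-beating donors, 11.49, 11.55 and 11.53 at 4 h, 11.31, 10.86 and 10.95 at 16 h, and 9.29, 9.94 and 10.16 at 30 h. Again the 16 h arrays lay below the earlier ones and the 30 h arrays lowest, with a 30 h difference of -1.82 (SE 0.18, adjusted p = 2.62e-05), or 3.53-fold lower. Atp5mc3, a gene for the c subunit that forms the ring, went from 12.53 ± 0.09 to 11.62 ± 0.39, a difference of -0.92 (SE 0.14, adjusted p = 0.000704). Of Atp5me, the e subunit, 1 probe set fell by 0.31 on the log2 scale (adjusted p = 0.0197) and the other had a difference of 0.05. Atp5mf (-0.02), Atp5mk (-0.07) and Atp5mpl (-0.05) were not called. Of the 3 probe sets of Atp5if1, the inhibitor that keeps the enzyme from hydrolysing ATP when respiration stops, 1 fell by 0.31 on the log2 scale (adjusted p = 0.0425) and the others had differences of -0.08 and -0.00. The call was lost in 13 of 24 settings. The probe set at -0.08 (1371230_x_at) was dim, below the array median in all 12 arrays.

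At 4 h after death 0 of 58 members were called by limma, and 1 had an unadjusted p under 0.05. Over all probe sets 0.0226% were called, and 1637 had an unadjusted p under 0.05. Member differences ran from -0.26 to 0.09 with a median of -0.06 against 0.00 over all probe sets, and 46 of 58 lay below 0.

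At 16 h 3 members fell, both Uqcrc2 probe sets and Cox5a, and 0 rose, while 1.49% of all probe sets fell and 3.18% rose. The median difference was -0.11 against -0.02 over all probe sets. In 20 of 58 members the 16 h arrays all lay below the heart-beating arrays, a pattern found in 15.7% of all probe sets. The count of calls at 16 h depended on the 30 h arrays, which share the estimate of the spread: it was 9 without 30 h animal 1, 5 without 30 h animal 3 and 10 without all 30 h arrays. Calls over all probe sets grew too. The 461 falls and 988 rises became 807 and 1350, 519 and 1092, and 958 and 1547 in these fits. With the Gapdh covariate 0 members were called at 16 h (19 at an unadjusted p under 0.05), and with the Actb covariate 1 was. Over all probe sets these fits left 25 falls and 45 rises, and 47 and 92.

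Between intervals, 3 members fell from 4 h to 16 h (2.52% of all probe sets did) and 0 rose (5.31%). The falls were both Uqcrc2 probe sets and 1 of the Sdhd probe sets (1371296_at, -0.43, adjusted p = 0.047). This count was 7 without 30 h animal 1, when the 781 falls and 1647 rises over all probe sets became 1224 and 2032. From 16 h to 30 h 15 members fell and 2 rose, against 5.95% and 4.29% of all probe sets. The falls included Atp5pb (-1.53), Atp5mg (-1.24), Uqcrc2 in its probe set 1373362_at (-1.05), Cox6a1 (-0.77), Cox5a (-0.62), Uqcrfs1 (-0.58) and Atp5f1a (-0.53), and the rises were Uqcc6 (0.35, adjusted p = 0.0273) and Atp5f1e (0.31, adjusted p = 0.0123). Without 16 h animal 1 the count of calls was 10, when the 1848 falls and 1332 rises over all probe sets became 767 and 498. From 4 h to 30 h 27 fell and 2 rose, against 8.62% and 10.3% of all probe sets.

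The comparisons at 16 h and 30 h with heart-beating donors share those donors, so their values are set side by side only: Atp5pb -0.56 and -2.08, Uqcrfs1 -0.33 and -0.92, Sdha 0.05 and -0.45, Atp5f1b 0.12 and -0.06. A pair of comparisons that share no array, 16 h against heart-beating donors and 30 h against 4 h, had a Pearson r of 0.78 and a Spearman rho of 0.80 across the 58 members, with 38 (65.5%) below 0 in both. Over all 31042 probe sets the values were 0.51 and 0.48, with 11508 (37.1%) below 0 in both. Probe sets are not independent replicates, and all arrays share 1 normalization, so these correlations are descriptions.

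For 6 member genes with more than 1 probe set, the brightest was set against each other one within the same array, which gave 7 pairs. At 30 h 3 of the 7 pairs changed unequally, a share not far from the 34.8% of all 6609 such pairs. At 16 h 2 did (14.1% of all pairs). The unequal change was largest in Uqcrc2: 1373362_at read 10.66, 10.53 and 10.65 in heart-beating donors, 10.36, 10.47 and 10.61 at 4 h, 9.77 ± 0.20 (SD) at 16 h, and 8.50, 8.90 and 8.77 at 30 h. The dimmer 1382280_at read 7.31, 7.12 and 7.55, then 7.31, 7.16 and 7.17, then 6.41, 5.99 and 6.01, and finally 6.59, 6.07 and 6.30. The first kept falling after 16 h, by a difference of -1.05 between 16 h and 30 h (adjusted p = 0.000263), whereas the second was already low at 16 h and differed by 0.18 between 16 h and 30 h (adjusted p = 0.456). Against heart-beating donors the differences at 30 h were -1.89 (SE 0.11, adjusted p = 2.42e-06) and -1.01 (SE 0.14, adjusted p = 0.000402), and they differed from each other by -0.88 (SE 0.17, adjusted p = 0.000402).

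Both Sdhd probe sets fell at 30 h, but 1371296_at by 1.13 and 1388294_at by 0.49 on the log2 scale, a difference between them of 0.64 (SE 0.10, adjusted p = 7.75e-05). At 16 h they already differed by 0.38 (adjusted p = 0.0203). Uqcc1, an assembly factor for cytochrome b of complex III, had probe sets on opposite sides: 1374179_at rose by 0.33 (SE 0.10, adjusted p = 0.0338) and 1372589_at had a difference of -0.25 that was not called (adjusted p = 0.118). The rise was lost in 10 of 25 settings: without 30 h animal 2 or 3, without heart-beating donor 2 or 3, after cyclic loess, with only the groups compared, with the replicate block and in the 3 fits with an RNA quality covariate. The contrast between the Uqcc1 probe sets was 0.58 at 30 h (SE 0.13, adjusted p = 0.00138) and 0.42 at 16 h (adjusted p = 0.0307). The pairs of Atp5me (adjusted p = 0.0684), Atp5po (0.15) and Atp5if1 (0.054 and 0.63) were not called at 30 h. In the Atp5po pair and the Atp5if1 pair at 0.63, the dimmer probe set lay below the array median in all 12 arrays. Which stretch of the transcript each probe set reads was not determined, and without 30 h animal 2 5 pairs were called.

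**Figure D5:**
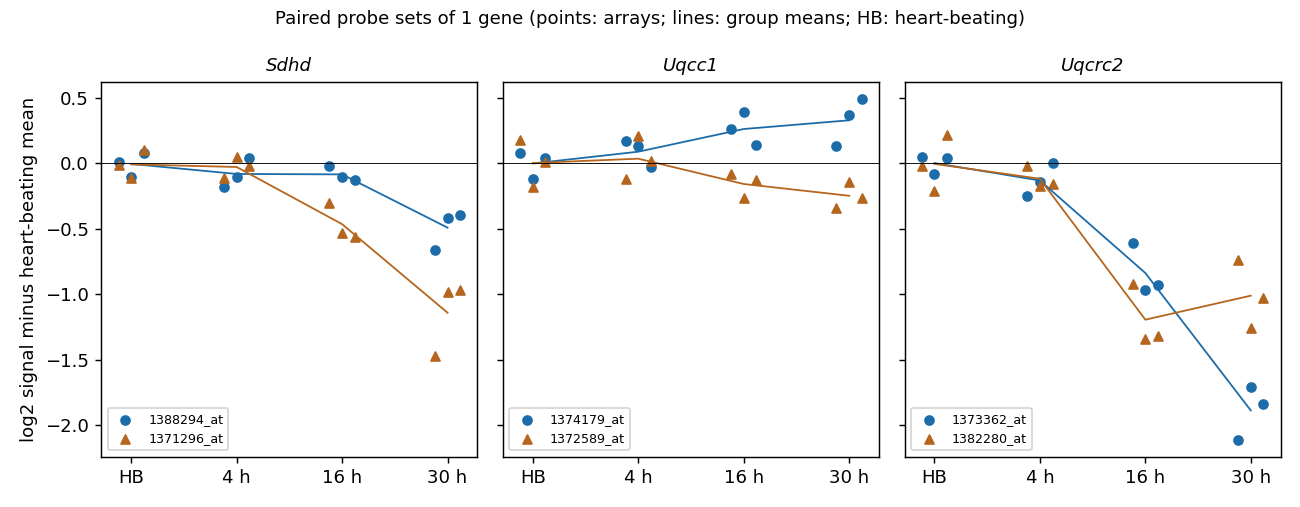
Log2 signal minus the heart-beating mean of the same probe set (y axis) by group (x axis) for the paired probe sets of Sdhd, Uqcc1 and Uqcrc2; points are arrays and lines join group means. The Uqcc1 probe sets part to 0.33 and -0.25 at 30 h, and the Uqcrc2 probe sets cross between 16 h and 30 h.

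Genes that serve these complexes were counted from lists by symbol, to be read against the 9.36% of all probe sets that fell at 30 h and the 10.4% that rose. Among probe sets with a mean log2 signal of at least 10, 34.2% fell. The mitochondrial genome encodes the catalytic core of complex IV, and 2 probe sets with such symbols were measured: COX1 (13.82 to 13.96 over all arrays) and COX2 (13.65 to 13.92). No RefSeq match was found for these probe sets, so their identity rests on the symbols in the platform annotation. Both signals lay near the bright end of the scale, where Alb read 14.49 to 14.51. Whether probe sets that bright could show a fall was not tested. Their 30 h differences of 0.08 (adjusted p = 0.315) and 0.14 (adjusted p = 0.116) were not called, although after cyclic loess both were called higher. Assembly factors of complexes II to V had 18 falls, 4 rises and 28 probe sets not called out of 50, with a median of -0.10, and without heart-beating donor 1 or donor 3 they had 10 falls and 4 rises. Higd2a (-0.93), Coa3 (-0.71) and Cox14 (-0.53), which serve the building of complex IV, fell. Lrpprc (0.61), which stabilizes mitochondrial mRNAs, Cox10 (0.38), which makes a heme of complex IV, and Atpaf1 (0.38), an assembly factor of the complex V head, rose. Among regulators of respiratory genes 0 of 39 probe sets fell and 9 rose, with a median of 0.06, and these included Gabpb1 (0.72), a subunit of the ETS factor GABP, Sp1 (0.51) and the nuclear receptor Esrra (0.41). In complex I, Ndufb8 (-1.53), Ndufa8 (-1.04) and Ndufa7 (-0.83) were among the falls and Ndufb1 (0.30) and Ndufb7 (0.30) were the rises.

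Markers of other cells moved with the interval as well, and over all probe sets 1.49% fell and 3.18% rose at 16 h, and 9.36% fell and 10.4% rose at 30 h. Of 13 Kupffer cell probe sets 8 fell at 16 h and 10 at 30 h, and the summed linear signal of the 11 genes ranged from 5260 to 5650 in the heart-beating group and from 5320 to 6700 in the 4 h group, then from 3660 to 4190 (16 h) and from 3240 to 3960 (30 h). Of 7 erythroid probe sets 4 rose at 30 h, with sums of 4290 to 5350, 4700 to 15700, 14100 to 17200 and 13700 to 20600. Of 11 liver endothelial probe sets 4 rose at 16 h and 2 at 30 h, with sums of 2590 to 2910 in heart-beating donors, 3120 to 3520 (4 h), 3930 to 4020 (16 h) and 2430 to 3710 (30 h). Of 17 hepatocyte probe sets 5 fell at 30 h, among them the asialoglycoprotein receptor genes Asgr2 (-1.33) and Asgr1 (-1.14) and Apoa1 (-0.28). The transcription factor Hnf4a (0.76) rose, and the summed signal of the list was 99200 to 109000 in heart-beating donors and 91200 to 99500 at 30 h. Stellate cell and fibroblast markers had 7 rises among 17 probe sets at 30 h. Muscle markers had 0 calls among 13 by limma (2 at an unadjusted p under 0.05), and their sum was 208 to 217 in heart-beating donors and 208 to 213 at 30 h. The part of these cells in the member results was not tested.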

How the data were processed

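RNA of isolated hepatocytes was hybridised to Affymetrix rat arrays, 1 per animal. The authors deposited 1 log2 signal per probe set and array, made with RMA per the submitters' processing notes, which also name limma without versions. RMA brings the arrays to nearly 1 distribution, so an equal loss of all transcripts could not be seen. Of 31099 probe sets 57 were controls, and of the other 31042, 20826 carried 1 gene symbol, 436 several and 9780 none in the platform annotation.

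For all 31042 probe sets and 12 arrays, limma 3.58.1 (lmFit and eBayes, 8 residual and 4.93 prior degrees of freedom) in R 4.3.3 fitted the 4 group means, with Benjamini-Hochberg adjustment over all probe sets and a threshold of 0.05. No filter or further normalization was applied. Probe sets of 1 gene were compared by the same test on within-array differences from the brightest one. Tested on simulated data with 100 probe sets moved by 0.5 and 100 by 1 log2 unit, the 30 h comparison called 68 and 99 of them, with 5 false calls. The 16 h comparison called 71 and 94 with 12 false calls, and the 4 h comparison 71 and 96 with 6. The fit was not tested on data with as many moved probe sets as were called at 30 h, 19.7% of all. The rate of false calls in the arrays themselves was not tested.

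Alternatives were median centring, cyclic loess, a further quantile normalization, the upper 50% of probe sets by mean, single-symbol probe sets, 1 probe set per gene, array weights, a robust fit with a variance trend, only the groups compared, the animal number as a replicate block, the Gapdh covariate, leaving out each array, and no 30 h arrays. The Actb covariate, and the Gapdh covariate without 30 h array 1, were added after seeing the data. Members and gene lists were chosen with earlier results of these data known. Genes named in full were, per complex and comparison with heart-beating donors, up to 4 called probe sets with the smallest p in each direction, every called rise, all isoform pairs, all Sdh genes, Cyc1 and genes with disagreeing probe sets; from each list up to 3 called genes per direction with the smallest p at 30 h. Atp5f1b, Uqcrq, Atp5pf, Uqcrc1 and the other members outside this rule were named after their values were seen, to account for all members. Marker lists held genes of 10 cell types. Of these, cholangiocyte, lymphocyte and neutrophil markers had 0 calls at 30 h (0, 2 and 2 at an unadjusted p under 0.05), pancreatic markers 2 falls and liver endothelial markers 2 rises.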

Additional observations from a re-analysis of the deposited data

Results flagged for a closer look

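Atp5if1, the inhibitor of complex V, stood out in 1 of its 3 probe sets (1369588_a_at), because it lay on opposite sides of heart-beating donors at the later intervals. It read 7.35, 7.44 and 7.59 in heart-beating donors, 7.58, 7.35 and 7.28 at 4 h, 7.73, 7.55 and 7.73 at 16 h, and 7.05, 7.29 and 7.13 at 30 h. The difference from heart-beating donors was 0.21 at 16 h, which was not called, and -0.31 at 30 h, and the difference between 30 h and 16 h was -0.51 (limma, adjusted p = 0.00579). The 3 arrays at 30 h all lay below the 3 at 16 h. The probe sets 1371229_at and 1371230_x_at of the same gene differed by 0.03 and -0.01 between 30 h and 16 h and were not called. Of these, 1371230_x_at was near the dim end of the scale (mean 4.62, below the array median in all 12 arrays), so it could show little of a fall. Groups of 3 arrays are too small for a check for outlying arrays, so none was made.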

How the results depend on the processing

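The values come from 12 arrays, so the number of animals limits the precision, and intensities carry no count depth. RNA quality also limits the 30 h results, because its controls moved with the interval. Apart from the RNA quality covariates, 22 of the 31 members that fell at 30 h kept the call in every setting that tested them, at most 22. The other 9 (Cox4i1, Cox7b, Uqcr10, Uqcr11, Uqcrc1, Atp5pd, and 1 probe set each of Atp5if1, Atp5po and Atp5me) lost it at least once. With the RNA quality covariates counted too, Atp5if1 (1369588_a_at) lacked the call in 13 of 24 settings. Atp5po (1370276_at) lacked it in 13 of 25 and Cox4i1 in 10 of 25, and the rest of these members in 4 to 7 of 25.

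Of 33 calls at 30 h, 0 remained with the Gapdh covariate, the Actb covariate, or the Gapdh covariate without 30 h array 1; the last pair of settings was chosen after seeing the data. The same 3 settings left 0 of 17 calls for 30 h against 16 h and 0 of 29 for 30 h against 4 h. Over all 31042 probe sets they left 0 calls for 30 h against heart-beating donors or against 4 h. For 30 h against 16 h they left 4 falls and 4 rises, 5 and 1, and 0 and 0, in the order named. For 16 h against heart-beating donors the 3 calls became 0, 1 and 0 in that order, and for 16 h against 4 h the 3 calls became 3 (1 fall and 2 rises), 0 and 0. Falls and rises over all probe sets were 25 and 45, 47 and 92, and 0 and 3 in the first comparison. In the second they were 521 and 781, 26 and 72, and 0 and 5. Fits of only the groups compared gave 8 calls at 16 h, 7 for 16 h against 4 h and 10 for 30 h against 16 h. Over all probe sets such fits left 1146 falls and 2240 rises for 16 h against 4 h. For 30 h against 16 h they left 1037 and 642. Array weights gave 14 at 16 h and 6 for 16 h against 4 h, cyclic loess 7 and 6, and the fit without the 30 h arrays 10 and 7. With 1 probe set per gene 1 was left for 16 h against 4 h. Calls over all probe sets at 16 h moved as well, from 461 falls and 988 rises in the main fit. They were 797 and 1355 with only the groups compared and 1441 and 2187 with array weights. Cyclic loess gave 607 and 883, and the fit without the 30 h arrays 958 and 1547.

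Leaving out each array in turn gave 0 calls at 4 h each time, 2 to 9 at 16 h, 25 to 33 at 30 h, 2 to 7 for 16 h against 4 h, 10 to 25 for 30 h against 16 h, 22 to 30 for 30 h against 4 h, and 3 to 5 unequal pairs. The lowest count at 30 h, 25, came without heart-beating donor 3. Across the fits without 1 array, falls over all probe sets ran from 2067 to 2839 at 30 h. They ran from 767 to 2193 for 30 h against 16 h, and from 1987 to 2627 for 30 h against 4 h. Rises ran from 2135 to 3260, 498 to 1945 and 2403 to 3306, in that order. The labels number the animals as biological replicates only and do not say whether the numbers pair the samples. Deviations from group means of same-numbered arrays correlated at -0.272 to 0.111 over 18 pairs. Those of differently numbered arrays correlated at -0.226 to 0.236 over 36 pairs. With 3 arrays per group these values cannot exclude a pairing. With the number as a replicate block there were 0 calls at 4 h, 2 at 16 h, 32 at 30 h, 2, 15 and 28 between intervals, and 3 unequal pairs. Over all probe sets the block left 2640 falls and 2981 rises at 30 h.

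With the Gapdh covariate these 30 h differences changed sign. In complex II they became 0.60 for Sdha, 0.82 for Sdhb, 0.84 for Sdhc, and 0.23 and 0.14 for Sdhd. In complex III they became 0.71 for Uqcc4, 0.43 for Uqcrc1, 0.53 for Cyc1, 0.40 for Uqcrfs1, 0.07 for Uqcr10, 0.67 for Uqcr11 and 0.69 for Uqcrh. In complex IV they became 0.07 for Cox4i1, 0.24 for Cox6a1, 0.37 for Cox6c, 0.34 for Cox7a2l, 0.05 for Cox7b, 0.30 for Cox8a and 0.25 for Cox6c-ps1. In complex V they became 0.25 for Atp5f1a, 0.38 for Atp5f1d, 0.20 for Atp5if1, 0.56 for Atp5mc3, 0.43 for Atp5me, 0.22 for Atp5mg, 0.06 for Atp5pb, 0.43 for Atp5pd and 0.64 for Atp5po. With 30 h array 1 also left out, the differences above 0 were 0.35 for Sdha, 0.39 for Sdhb, 0.07 for Sdhc, 0.58 for Uqcc4, 0.45 for Uqcrc1, 0.15 for Uqcrc2 (1382280_at), 0.24 for Cyc1, 0.02 for Uqcr10, 0.08 for Uqcr11, 0.21 for Uqcrh, 0.18 for Cox4i1, 0.07 for Cox7b, 0.55 for Cox6c-ps1, 0.06 for Atp5f1a, 0.47 for Atp5f1d, 0.21 for Atp5if1, 0.37 for Atp5me, 0.32 for Atp5pd and 0.41 for Atp5po. The median standard error of the 58 members was 0.27 in the first of these fits and 0.36 in the second, and 0 of these differences were called. RNA quality and interval cannot be told apart in them. The cause was not tested.

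With the Gapdh covariate, with the Actb covariate, and with 30 h array 1 left out beside the Gapdh covariate, the pathway lists had 0 calls at 30 h. In these fits 0 of all 31042 probe sets were called at 30 h, so no list could have a call. With only the compared groups in the model, the electron donors had 2 falls and 1 rise in place of 6 and 3, and with array weights 1 regulator probe set fell.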

Other observations

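Genes around the respiratory chain moved in both directions at 30 h, when 9.36% of all probe sets fell and 10.4% rose. Of 34 probe sets for inner membrane organisation and nucleotide exchange 17 fell and 6 rose, with a median difference of -0.33. The falls included Micos13 (-2.00, SE 0.18, adjusted p = 1.54e-05), Apool (-1.13, SE 0.09, adjusted p = 8.16e-06) and Apoo (-0.85), all parts of the MICOS complex that shapes the cristae in which complexes III to V sit. Crls1 (0.78), which makes cardiolipin, the lipid of the inner membrane, rose, as did the outer membrane channel Vdac1 (0.42) and the carrier Ucp2 (0.49). Among 23 probe sets for other electron donors to ubiquinone and for ubiquinone synthesis 6 fell and 3 rose, and without heart-beating donor 3 these counts were 3 and 1. Etfdh (-0.89) and Etfa (-0.39), which pass electrons from fatty acid oxidation to ubiquinone, fell, and so did Sqor (-0.58), which oxidizes sulfide. Prodh (0.77), which oxidizes proline, and Pdss2 (0.28), which makes the ubiquinone tail, rose.

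The vacuolar ATPase, a rotary proton pump of lysosomes built on a plan like that of complex V, had 8 falls and 1 rise among 28 probe sets at 30 h, with a median of -0.07. Over all probe sets 9.36% fell and 10.4% rose at 30 h. Atp6v0e1 (-1.44, SE 0.16, adjusted p = 6.9e-05), Atp6v0c (-0.89) and Atp6v1g1 (-0.74) fell, and the accessory subunit Atp6ap1 (0.47) rose. At 16 h, when 1.49% of all probe sets fell, 1 of these 28 fell and 0 rose (5 at an unadjusted p under 0.05 in limma). At 30 h 0 of these probe sets and 0 members were called with an RNA quality covariate, as were 0 of all 31042 probe sets.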
